A study of Homo sapiens with 4 samples.

Results

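The 2816 high-mitochondrial barcodes of 2 single-cell RNA-seq capture runs were described here beside the 13017 intact cells of the same cultures. A barcode is the DNA tag of 1 droplet, and a UMI is a counted RNA molecule. A barcode entered when 1 hashtag held at least 80% of its hashtag UMIs and it had at least 1000 gene-expression UMIs, which 16466 of 24564 barcodes did. It was called high-mitochondrial when more than 15% of its UMIs came from the mitochondrial genes (names starting with MT-). It was called intact when that share was 15% or less and it held at least 7000 UMIs in run 1 or 5000 UMIs in run 2. The remaining 633 barcodes had a low mitochondrial share and fewer UMIs than intact cells, and are named low-UMI barcodes below. The study set aside barcodes outside its limits on UMIs and mitochondrial share before analysis, so its embryo models were read from cells of the intact kind.

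All cells were H9 (WA09), an established human embryonic stem cell line, kept in the naive state and formed into blastoids, which are stem-cell models of the blastocyst. The cultures were treated with 4 mM dm-αKG, a cell-permeable dimethyl ester of the metabolite α-ketoglutarate, or with 0 mM, for the first 40 h. Run 1 held 4 cultures, blastoids at 4 mM and 0 mM collected at 120 h and aggregates at 4 mM and 0 mM collected at 40 h, and run 2 held blastoids at 4 mM and 0 mM collected at 120 h. Blastoids with a single cavity were picked by mouth pipette, all structures were dissociated with TrypLE and Accutase, labelled with hashtag antibodies, pooled and sorted before capture, so the barcodes describe what survived these steps. Each of the 6 hashtagged cultures is called an arm, and an arm is 1 hashtag in 1 library. Nothing in the labels names replicate cultures of an arm, the arms of a run share a library, and p-values below therefore apply to these 6 arms only. The files held 28 barcode sequences that occurred in both runs, and 0 of them were high-mitochondrial in both.

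The arm of every barcode was read from a 15-base oligonucleotide carried by the antibody, and these oligonucleotides are shown because the membership of each barcode rests on them. They bind no genomic site.
A0252, blastoids 4 mM, run 1: tgatggcctattggg
A0251, blastoids 0 mM, run 1: gtcaactctttagcg
A0256, blastoids 4 mM, run 2: ggttgccagatgtca
A0255, blastoids 0 mM, run 2: aagtatcgtttcgca
A0254, aggregates 4 mM, run 1: agtaagttcagcgta
A0253, aggregates 0 mM, run 1: ttccgcctctctttg

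The share of mitochondrial UMIs is a routine quality measure of single-cell libraries, and barcodes with a high share are commonly removed as damaged or dying cells. RNAs of a cell sit in different places. Transcripts of the mitochondrial genome lie in the mitochondrial matrix, MALAT1 and NEAT1 are long noncoding RNAs held in the nucleus, mRNAs of secreted and membrane proteins are translated at the endoplasmic reticulum (ER), and mRNAs of ribosomal proteins and glycolytic enzymes are translated in the cytosol. Nuclear genes, here meaning all genes outside the mitochondrial genome, were therefore compared after the MT- genes had been removed from every total.

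High-mitochondrial barcodes were common in every arm, but their share ranged widely. They made up 18.0% (exact 95% binomial interval 16.0 to 20.1; 241 of 1340 barcodes) of blastoids at 4 mM and 46.4% (42.8 to 49.97; 360 of 776) of blastoids at 0 mM in run 1. In run 2 they made up 8.63% (7.93 to 9.37; 513 of 5943) of blastoids at 4 mM and 12.5% (11.6 to 13.4; 631 of 5067) of blastoids at 0 mM. The order of the doses was the other way round in aggregates, where the share was 38.6% (36.5 to 40.8; 772 of 1999) at 4 mM and 22.3% (20.1 to 24.6; 299 of 1341) at 0 mM. Each dose had 1 arm per culture and run, so these shares are a description of 6 arms, and the intervals cover counting error only.

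The high mitochondrial share came with few nuclear UMIs and about the usual number of mitochondrial UMIs. The median high-mitochondrial barcode held 1503 to 3091 nuclear UMIs over the 6 arms, against 14881.5 to 28820.5 in intact cells, or 7.96% to 10.9% of the intact median of the same arm. Its median number of mitochondrial UMIs was 699 to 1774, against 641 to 1476.5 in intact cells, or 103% to 120% of the intact median. The states were defined by these quantities, and by a higher UMI minimum for intact cells, so these medians are given without a test. The median mitochondrial share was 30.1% to 36.8% in high-mitochondrial barcodes and 4.01% to 5.14% in intact cells, and the highest single barcode of an arm reached 72.9% to 83.4%.

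Hashtag UMIs count antibody bound to the cell surface and took part in the choice only through their purity. High-mitochondrial barcodes held 77.6% to 90.6% of the intact median. The medians of high-mitochondrial barcodes against intact cells were 180 against 232 and 160 against 196.5 in blastoids of run 1 at 4 mM and 0 mM. They were 75 against 89 and 165 against 210 in blastoids of run 2, and 178.5 against 224.5 and 126 against 139 in aggregates, at 4 mM and 0 mM each time. High-mitochondrial barcodes were lower in all 6 arms, with a mean log2 ratio of -0.29 ± 0.083 (SD, n = 6 arms; exact two-sided sign-flip permutation test, p = 0.03125, the smallest that 6 arms allow). The low-UMI barcodes had 24 to 111 hashtag UMIs, and against them high-mitochondrial barcodes were higher in 6 of 6 arms (mean log2 ratio 1.16 ± 0.89, SD, n = 6; exact p = 0.03125). The direction against intact cells turned when high-mitochondrial barcodes had to reach the same UMI minimum as intact cells (0.36, higher in 6 of 6 arms).

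**Figure D1:**
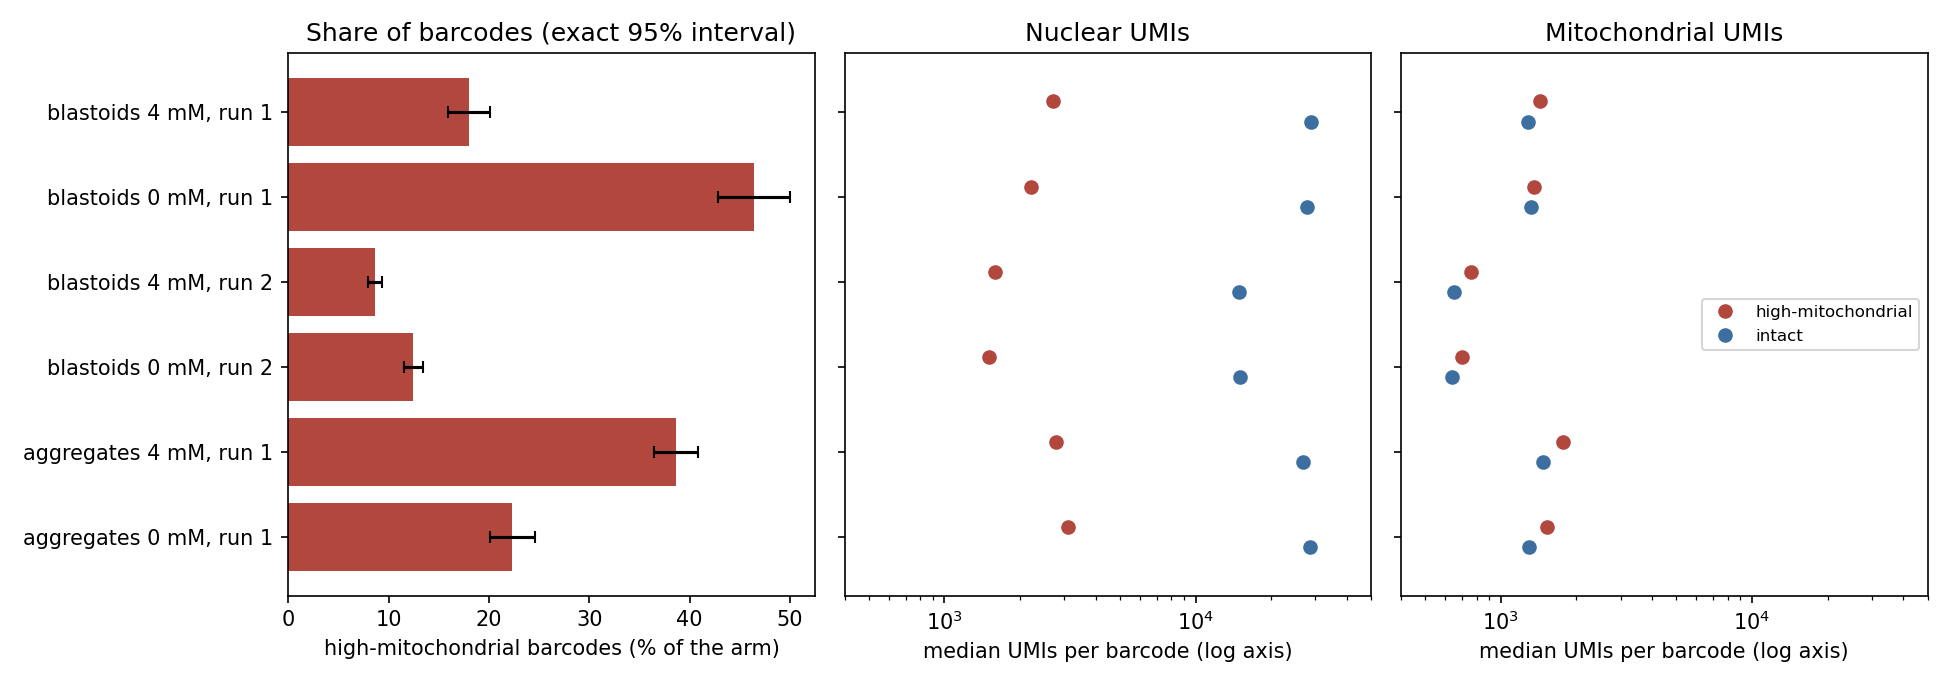
Share of high-mitochondrial barcodes in each arm (percent of single-hashtag barcodes, bars with exact 95% intervals) and median nuclear and mitochondrial UMIs per barcode (log axes) of high-mitochondrial barcodes (red) and intact cells (blue) by arm. Nuclear UMIs of high-mitochondrial barcodes lay between 1503 and 3091, below all intact medians of 14881.5 to 28820.5, while mitochondrial UMIs lay between 699 and 1774 and overlapped the intact medians of 641 to 1476.5.

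At equal depth, more nuclear genes were detected in high-mitochondrial barcodes than in intact cells. Each barcode was thinned to 500 nuclear UMIs, and 0 to 10 high-mitochondrial barcodes per arm fell below that depth and were left out. The median number of genes detected was 379 to 392 in high-mitochondrial barcodes, against 341 to 353 in intact cells and 336 to 360 in low-UMI barcodes. The difference from intact cells was 40.5 ± 4.32 genes (SD, n = 6 arms), and high-mitochondrial barcodes were higher in 6 of 6 arms (exact two-sided sign-flip permutation test, p = 0.03125). Against low-UMI barcodes, whose median depth of 1071 to 3996 nuclear UMIs was nearer, the difference was 40.2 genes and again positive in 6 of 6 arms (exact p = 0.03125).

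Most nuclear genes differed in relative level between the states. UMIs were summed over the barcodes of each state in each arm, which gave sums of 755157 to 2509080 nuclear UMIs for high-mitochondrial barcodes and 10480271 to 84598070 for intact cells. Gene levels below are nuclear UMI counts as CPM scaled with TMM factors (normalised CPM), and changes come from edgeR's quasi-likelihood test with the arm in the model and Benjamini-Hochberg adjustment over all genes. Of 12953 genes tested, 9122 (70.4%) passed at an adjusted p under 0.05, with 4711 (36.4%) higher and 4411 (34.1%) lower in high-mitochondrial barcodes. Changes of more than 2-fold were called for 1860 genes (14.4%) that were higher and 1185 genes (9.15%) that were lower. With plain totals in place of TMM factors the split was 8162 higher and 1634 lower, since the median of all genes then moved to 0.65 on the log2 scale, against 0.03 with TMM factors; a change of a gene is read relative to that median. The arms did not overlap between the states for 2211 genes (17.1%) that were higher and 2665 genes (20.6%) that were lower. Shares of nuclear UMIs below use plain totals, without TMM factors.

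Fewer genes were called against shallow barcodes with few mitochondrial UMIs. Against low-UMI barcodes, 2149 of 7556 genes (28.4%) were called, 1039 (13.8%) higher and 1110 (14.7%) lower in high-mitochondrial barcodes, with 271 (3.59%) more than 2-fold higher and 44 (0.582%) more than 2-fold lower. The sums of low-UMI barcodes held 67307 to 571781 nuclear UMIs, and fewer genes could be tested. Smaller sums also make a call harder, so the lower count does not tell how much of the contrast low-UMI barcodes share.

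MALAT1, a nuclear noncoding RNA, rose in high-mitochondrial barcodes of every arm. The gene lies on chromosome 11, at 65497640 to 65508073 on the plus strand of GRCh38, and its RNA of 10434 bases sits in nuclear speckles. Its level was 22716 and 27638 normalised CPM in high-mitochondrial barcodes of blastoids at 4 mM and 0 mM in run 1, against 6637 and 8573 in intact cells. In run 2 it was 22067 and 23836 in high-mitochondrial barcodes, against 6652 and 8535 in intact cells, and in aggregates 23935 and 27321, against 5394 and 7165. The lowest high-mitochondrial arm was thus above the highest intact arm, and the log2 change was 1.79 ± 0.054 (SE; adjusted p = 1.13e-30). Per barcode, high-mitochondrial barcodes kept 47.7% to 80.1% of the MALAT1 UMIs of an intact cell, where the median over 6218 genes at 20 CPM or more was 14.6% (5th to 95th percentile 7.40% to 38.6%). As a share of nuclear UMIs, MALAT1 made up 2.70% to 3.36% in high-mitochondrial barcodes, 0.442% to 0.683% in intact cells and 0.657% to 1.91% in low-UMI barcodes.

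High-mitochondrial barcodes were not uniform in MALAT1. The 10th percentile over single barcodes was 0.0655% to 0.302% of nuclear UMIs by arm, against 0.155% to 0.260% in intact cells, and the 90th percentile was 4.97% to 6.66%, against 0.793% to 1.36%. The lower end of the high-mitochondrial barcodes therefore overlapped intact cells, while the upper end lay far above them. A barcode of 1503 nuclear UMIs, the lowest arm median, carries larger counting error than a barcode of 14881.5.

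GAPDH, the glycolytic glyceraldehyde-3-phosphate dehydrogenase (chromosome 12, 6534512 to 6538374, plus strand), was at the other end. It stood at 1302 and 1163 normalised CPM in high-mitochondrial barcodes of blastoids at 4 mM and 0 mM in run 1, against 3461 and 3457 in intact cells. In run 2 the levels were 1140 and 1084 in high-mitochondrial barcodes, against 3626 and 3175 in intact cells, and in aggregates 929 and 1078, against 2987 and 3465. Every high-mitochondrial arm was below every intact arm (log2 change -1.596 ± 0.051, SE; adjusted p = 4.4e-30), and 5.22% to 5.83% of the UMIs of an intact cell were kept. EEF1A1, the translation elongation factor that is among the most abundant mRNAs of these cells, had 4932 to 5444 normalised CPM in high-mitochondrial barcodes, against 12247 to 13431 in intact cells (-1.29 ± 0.046). ACTB, cytoplasmic actin, had 1007 to 1388 in high-mitochondrial barcodes, against 2139 to 2526 in intact cells (-1.05 ± 0.053).

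POU5F1, the core pluripotency factor that marks the epiblast-like cells of these cultures, fell by about as much as GAPDH. It had 472, 428, 391, 402, 380 and 405 normalised CPM in high-mitochondrial barcodes of blastoids in run 1, blastoids in run 2 and aggregates, each at 4 mM and then 0 mM. Intact cells of the same arms had 1155, 1111, 1117, 1122, 1103 and 1105. Both states were even over the arms and did not overlap (-1.44 ± 0.054; adjusted p = 1.62e-27). KRT18, a keratin of the trophectoderm that naive cells also express, varied with the culture. Its levels in high-mitochondrial barcodes were 437, 258, 395, 428, 153 and 147 normalised CPM in the same order of arms, against 841, 775, 609, 723, 323 and 239 in intact cells. KRT18 was lower within each arm (-0.95 ± 0.073; adjusted p = 4.85e-16), but the states overlapped over all arms, since intact aggregates were below high-mitochondrial blastoids of 3 of 4 arms.

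Apart from MTRNR2L12, the genes with the 15 largest rises were at 12.1 normalised CPM or less in every intact arm. Naming asked for a mean of 20 CPM or more over the sums of both states. These genes reached it only through the high-mitochondrial sums, so the rule favours large rises. In UMIs per barcode, these 15 genes had 105% to 279% of the value of an intact cell by the mean over arms. MTRNR2L12, a nuclear gene nearly identical in sequence to the mitochondrial 16S ribosomal RNA, had 1705 to 2116 normalised CPM (median 1852) in high-mitochondrial barcodes, against 97.3 to 131 (median 115) in intact cells (4.04 ± 0.056). MTRNR2L8, of the same family, had 67.3 to 107 in high-mitochondrial barcodes, against 4.85 to 10.1 in intact cells (3.75 ± 0.11). The count tables list 13 mitochondrial genes, all protein-coding, so reads of the mitochondrial ribosomal RNA and of these nuclear copies cannot be told apart here. With 234% to 306% of the UMIs of an intact cell, MTRNR2L12 was 1 of 4 genes among the 6218 at 20 CPM or more that had more UMIs per barcode in high-mitochondrial barcodes in every arm. The others were MTRNR2L8, AL356599.1 and NAIP, which reached 20 CPM only through the high-mitochondrial sums.

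NAIP, an inflammasome sensor of bacterial proteins with near-identical copies on chromosome 5, had 31.9 to 66.5 normalised CPM in high-mitochondrial barcodes, against 3.77 to 7.72 in intact cells (3.17 ± 0.12), and its reads may be divided among the copies. TTN, which encodes the giant muscle protein titin, had 15.6 to 47.1 in high-mitochondrial barcodes, against 2.54 to 3.46 in intact cells (3.60 ± 0.15), and 95% to 274% of the UMIs per barcode of an intact cell by arm. Both genes are at low level in intact cells, and neither overlapped between the states. TSHZ2, a zinc finger transcription factor, rose by 3.09 ± 0.13 on the log2 scale, ECHDC2, a mitochondrial enoyl-CoA hydratase family member, by 2.76 ± 0.12 and LHFPL5, a tetraspan membrane protein of inner ear hair cells, by 2.66 ± 0.13.

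LRP2, the endocytic receptor megalin, rose in every arm but differed strongly between cultures. It had 70.6, 11.5, 68.2 and 65.1 normalised CPM in high-mitochondrial barcodes of blastoids (run 1 at 4 mM and 0 mM, then run 2 at 4 mM and 0 mM), against 11.7, 3.88, 6.58 and 6.76 in intact cells. In aggregates it had 1.25 at 4 mM and 0.797 at 0 mM in high-mitochondrial barcodes, against 0.278 and 0.247 in intact cells, so it was nearly absent from both states there. Over all arms the states overlapped, and the log2 change was 2.91 ± 0.17. The remaining names among the 15 largest rises were AUXG01000058.1, AL356599.1, AL022323.4, AL162718.3, AL354733.3, AC003681.1 and KDM4A-AS1, which rose by 2.64 to 3.17 on the log2 scale.

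The largest falls included mRNAs of glycolytic and cytoskeletal proteins. HIST1H4C, a replication-dependent histone H4 gene whose mRNA carries no poly(A) tail in its usual form, had 135 to 218 normalised CPM in high-mitochondrial barcodes, against 479 to 960 in intact cells (-2.11 ± 0.088). KDELR1, the receptor that returns ER proteins from the Golgi, had 66.4 to 80.5 normalised CPM in high-mitochondrial barcodes, against 243 to 280 in intact cells (-1.84 ± 0.073). Neither gene overlapped between the states. Among the 15 largest falls were also the glycolytic enzyme TPI1 (-1.63 ± 0.054), the lactate dehydrogenase subunit LDHB (-1.62 ± 0.058), the actin-binding protein PFN1 (-1.59 ± 0.053) and TOMM22, a receptor of the mitochondrial outer membrane import complex (-1.58 ± 0.069). MRPL58, ERI3, MMADHC, CCNI, DUSP23, CIB2 and THYN1 fell by 1.57 to 1.81 on the log2 scale.

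**Figure D2:**
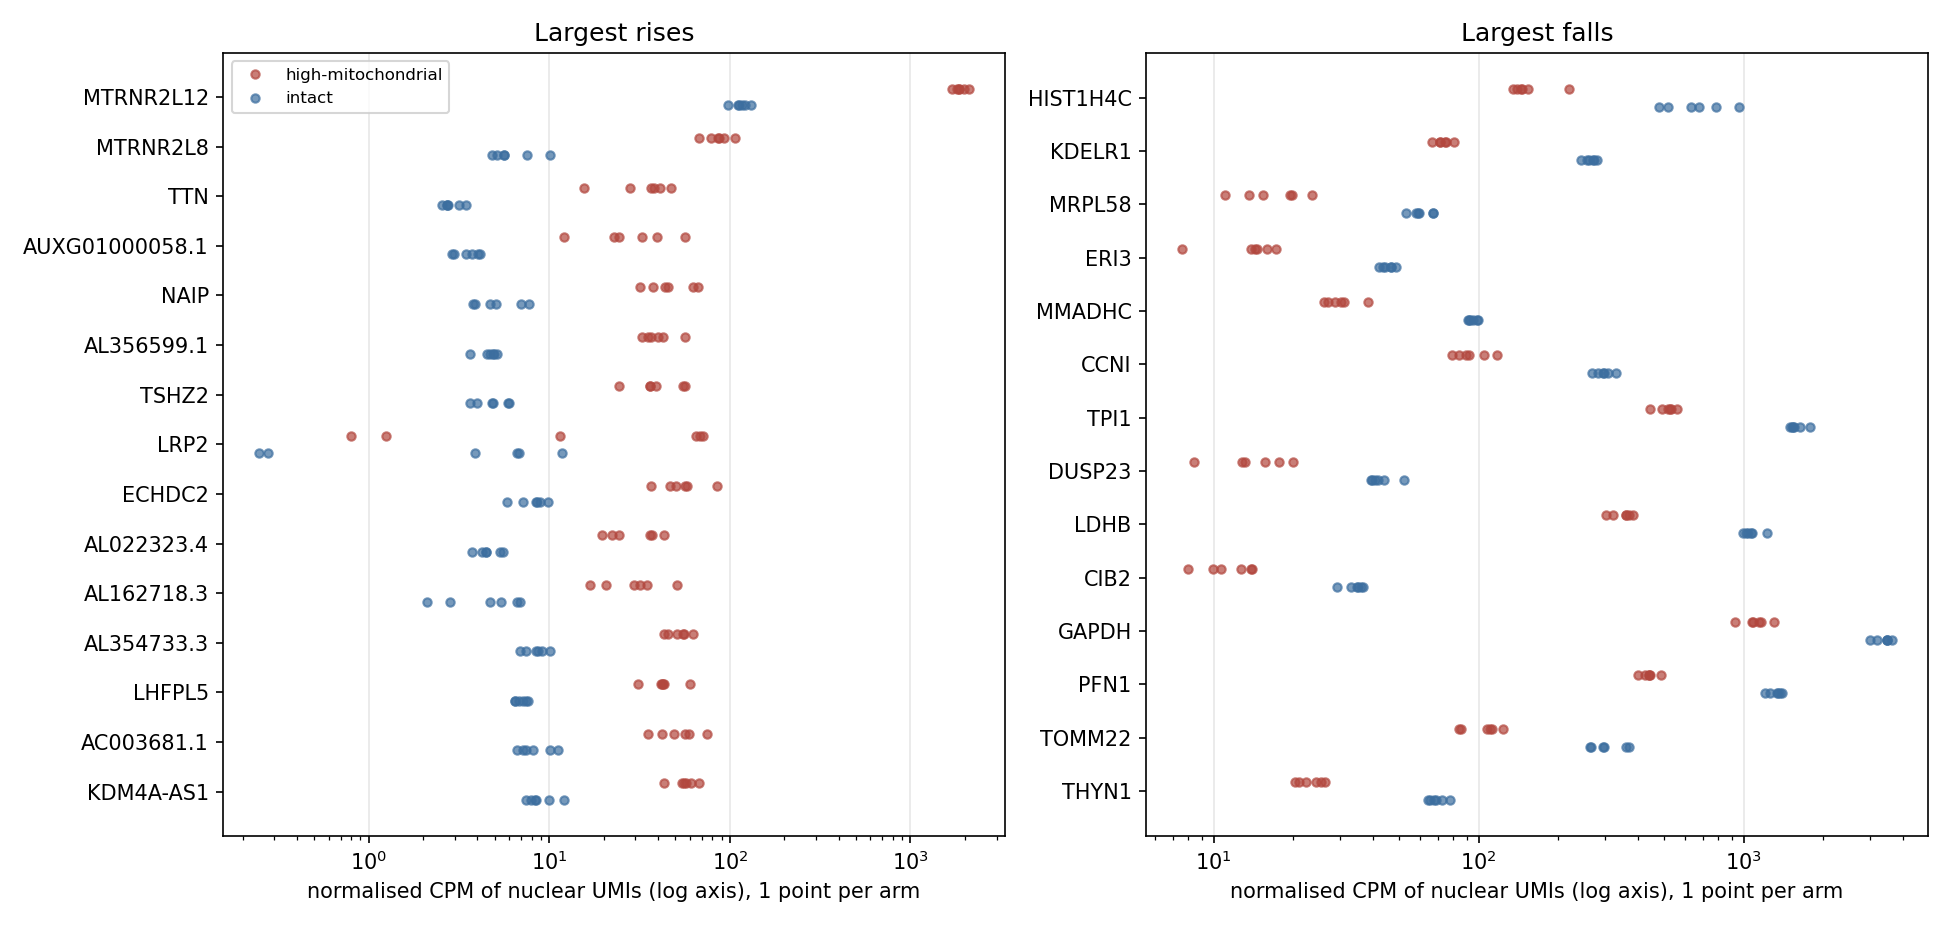
Normalised CPM (log axes) of the genes named among the largest rises (left) and the largest falls (right), with 1 point per arm for high-mitochondrial barcodes (red) and for intact cells (blue). The states overlapped for LRP2 and for no other gene drawn: MTRNR2L12 had 1705 or more in every high-mitochondrial arm, against 131 or less in intact cells, and GAPDH had 1302 or less, against 2987 or more.

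Nuclear-retained noncoding RNAs rose together. Of the 14 listed, all were tested, 13 were higher, 0 were lower and 1 was not called. The median log2 change was 1.67, against 0.03 over all genes. Long noncoding RNA (lncRNA) genes rose as a class, with 977 of 1286 higher and a median of 1.32, so the rise was not particular to this list. FTX, a noncoding RNA of the X-inactivation centre, had 187 to 338 normalised CPM in high-mitochondrial barcodes, against 50.7 to 66.4 in intact cells (2.07 ± 0.070). MEG8, an imprinted noncoding RNA on chromosome 14, had 1121 to 1798 in high-mitochondrial barcodes, against 296 to 418 in intact cells (2.03 ± 0.054). Neither overlapped between the states. The list made up 3.52% to 4.41% of nuclear UMIs in high-mitochondrial barcodes, 0.657% to 0.920% in intact cells and 0.817% to 2.44% in low-UMI barcodes. MALAT1, a member, alone held 2.70% to 3.36% in high-mitochondrial barcodes. Against low-UMI barcodes 9 of 11 members tested were higher.

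Host genes of small nucleolar RNAs, which are noncoding RNAs spliced and in part degraded in the cytoplasm, divided in both directions. Of 13 members 5 were higher and 7 lower, with a median of -0.20 that turned to 0.41 with plain totals. Over all genes 36.4% were higher and 34.1% lower, so the count of higher members was near the general share. SNHG1 (1.32 ± 0.068) and SNHG3 (1.23 ± 0.063) rose, while SNHG16 (-1.22 ± 0.062) and SNHG29 (-1.18 ± 0.052) fell. SNHG1 had 271 to 411 normalised CPM in high-mitochondrial barcodes, against 113 to 149 in intact cells, and SNHG29 had 551 to 713, against 1293 to 1661.

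Splicing and nuclear speckle genes, most of them coding, leaned upward. Of 31 tested, 18 were higher, 8 were lower and 5 were not called (median 0.25, and 0.87 with plain totals). The general shares were 36.4% higher and 34.1% lower. NKTR, a cyclophilin with serine and arginine repeats, had 252 to 333 normalised CPM in high-mitochondrial barcodes, against 91.0 to 126 in intact cells (1.46 ± 0.063), and PNN, the speckle protein pinin, had 669 to 943, against 287 to 437 (1.29 ± 0.058). HNRNPA1 (-1.08 ± 0.052) and SRSF3 (-0.86 ± 0.059), which bind RNA during splicing, fell. The list's share of nuclear UMIs was 1.24% to 1.502% in high-mitochondrial barcodes and 0.764% to 0.932% in intact cells.

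Every cytosolic ribosomal protein gene tested was lower. All 79 were called lower under TMM factors (median -1.17), and with plain totals 76 were lower and 1 higher (median -0.56). RPS15A, a protein of the small ribosomal subunit, had 2035 to 2307 normalised CPM in high-mitochondrial barcodes, against 5694 to 6673 in intact cells (-1.52 ± 0.047). Ribosomal protein genes made up 22.8% to 25.4% of nuclear UMIs in high-mitochondrial barcodes, against 33.6% to 36.3% in intact cells, and the states did not overlap. Low-UMI barcodes were at 29.7% to 35.9%, and 78 of the 79 genes were lower in high-mitochondrial than in low-UMI barcodes (median -0.72). Over single barcodes the 10th to 90th percentiles ran from 15.6% to 39.7% in high-mitochondrial barcodes, taking the lowest and the highest arm, and from 30.2% to 40.0% in intact cells.

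The other cytosolic groups fell with them, where 34.1% of all genes were lower. Translation factors and ribosome-associated proteins were lower in 23 of 26 and higher in 1 (median -1.03). RACK1, a scaffold protein of the small subunit, had 1480 to 1775 normalised CPM in high-mitochondrial barcodes, against 3913 to 4242 in intact cells (-1.38 ± 0.049), while EIF4A2, an RNA helicase of translation initiation, was the member that rose (0.57 ± 0.061). BTF3, a subunit of the nascent polypeptide-associated complex, fell by 1.37 on the log2 scale. Glycolytic genes were lower in 13 of 16 and higher in 1, PFKP, the platelet-type phosphofructokinase (0.35 ± 0.11), with a median of -1.21. Their summed share was 0.402% to 0.512% of nuclear UMIs in high-mitochondrial barcodes and 0.743% to 0.938% in intact cells. Cytoskeletal genes were lower in 28 of 29 and higher in 0 (median -1.03), among them CFL1, the actin-severing cofilin, with 265 to 343 normalised CPM in high-mitochondrial barcodes, against 777 to 879 in intact cells (-1.45 ± 0.057). Heat shock genes were lower in 9 of 12 (median -0.75), with HSP90AB1 at 1488 to 2154 in high-mitochondrial barcodes, against 3667 to 4873 in intact cells (-1.22 ± 0.049). HSP90AA1 fell by 0.92 on the log2 scale and CHORDC1, a co-chaperone, was higher at 0.22 ± 0.083, a call lost without blastoids at 0 mM of run 1 (0.057). The medians of these 4 groups stayed below 0 with plain totals.

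Nuclear genes for mitochondrial proteins were mostly lower, as the cytosolic groups were, against 34.1% of all genes. All 77 mitochondrial ribosomal protein genes tested were lower (median -0.98), and with plain totals 55 were lower and 3 higher. MRPL54 had 30.4 to 39.6 normalised CPM in high-mitochondrial barcodes, against 93.4 to 103 in intact cells (-1.47 ± 0.090). Nuclear-encoded subunits of oxidative phosphorylation (OXPHOS) were lower in 74 of 77 and higher in 3 (median -0.94), and with plain totals 61 were lower and 4 higher. UQCRFS1, the Rieske subunit of complex III, had 71.7 to 92.5 in high-mitochondrial barcodes, against 203 to 292 in intact cells (-1.50 ± 0.073), and NDUFB11 of complex I fell by 1.44. The catalytic subunit of complex II, SDHA, went the other way with 48.5 to 74.9, against 34.2 to 44.3 (0.74 ± 0.088), and NDUFS1 of complex I was at 0.21 ± 0.087 with adjusted p = 0.0322. The call of NDUFS1 was lost without any 1 of the 4 blastoid arms (0.14 to 0.19). Enzymes and chaperones of the matrix were lower in 24 of 28 and higher in 1 (median -0.67), and with plain totals 11 were lower and 9 higher. SUCLG1, a subunit of succinyl-CoA ligase, fell by 1.37 on the log2 scale and the protease CLPP by 1.14, while DLST, of the 2-oxoglutarate dehydrogenase complex, was at 0.34 ± 0.11, which was not called without aggregates at 4 mM (0.26) or without blastoids at 0 mM of run 1 (0.23).

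Among the mitochondrial genes themselves the proportions shifted a little. As a share of mitochondrial UMIs, MT-ND1, MT-ATP8, MT-ATP6, MT-CO3, MT-ND4L, MT-ND5 and MT-ND6 were higher in high-mitochondrial barcodes in 6 of 6 arms, and MT-CO1, MT-CO2 and MT-ND4 were lower in 6 of 6. MT-ND6, the complex I subunit encoded on the light strand, was at 0.357% to 0.454% in high-mitochondrial barcodes and 0.214% to 0.299% in intact cells. MT-CO2, a complex IV subunit, was at 16.6% to 19.5% in high-mitochondrial barcodes and 19.01% to 20.8% in intact cells. The other 3 genes did not keep 1 direction, with MT-ND2 higher in 4, MT-ND3 in 5 and MT-CYB in 2 of 6 arms. These genes chose the barcodes, so the shares are a description.

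**Figure D3:**
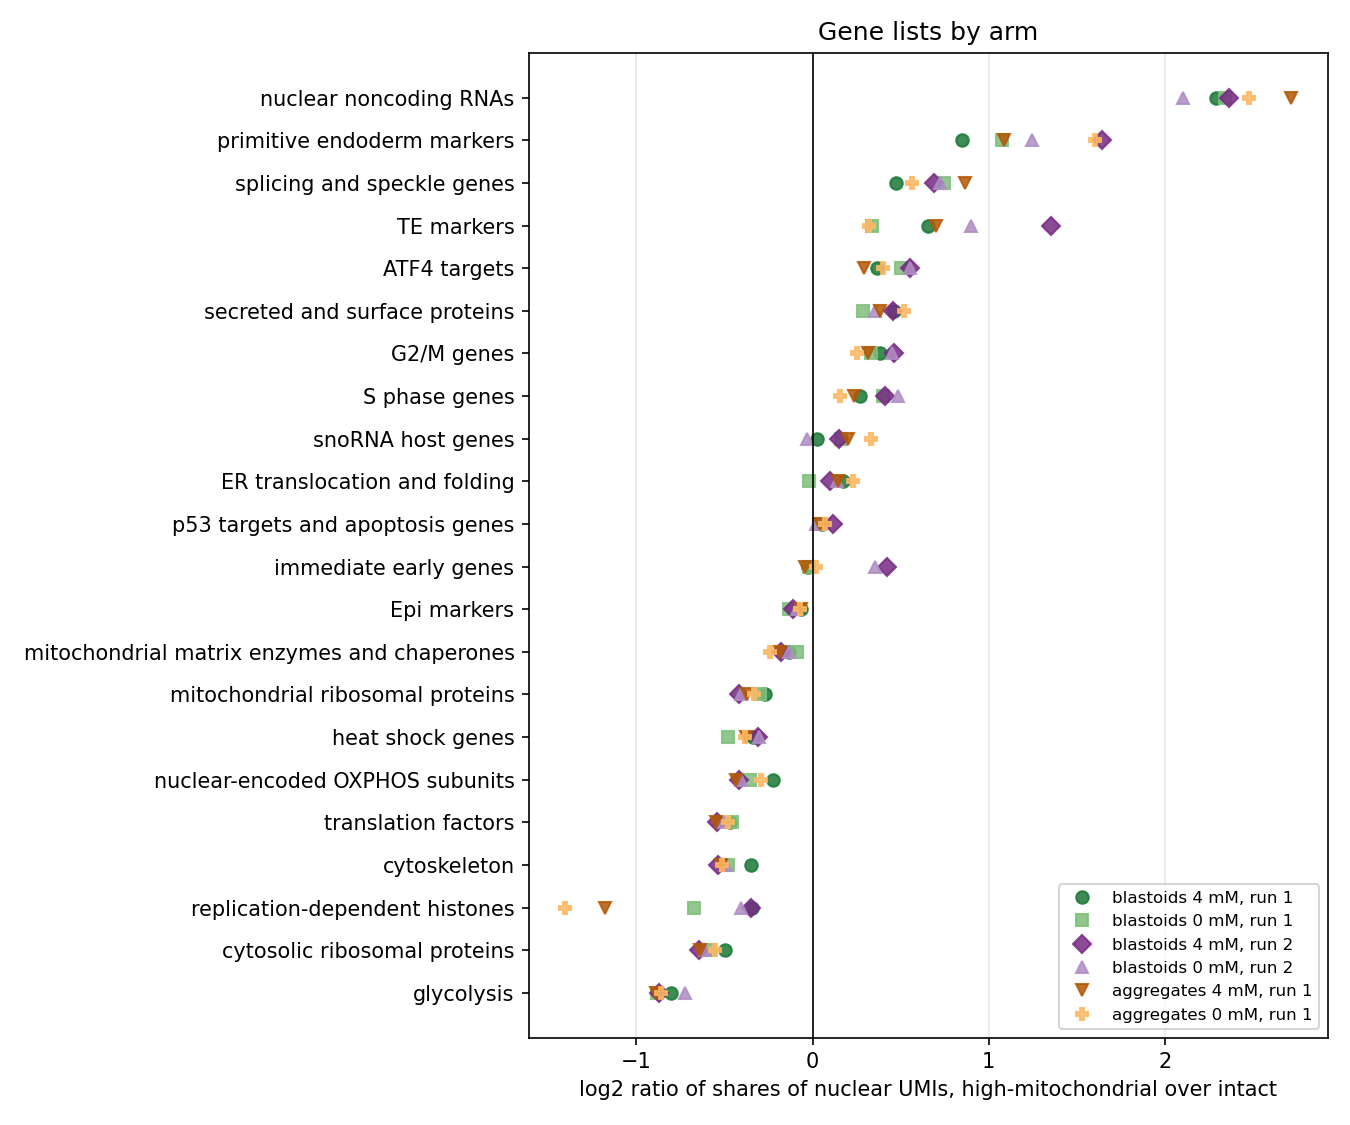
Log2 ratio of each gene list's share of nuclear UMIs, high-mitochondrial over intact, with 1 point per arm and without the amnion and the mesoderm and fibroblast markers. Shares use plain totals, where the median log2 change of all genes was 0.65. The nuclear noncoding RNAs lay at 2.10 to 2.72 in all arms and the ribosomal protein genes at -0.64 to -0.49, while the immediate early genes lay at -0.04 to 0.42 and the replication-dependent histones at -1.40 to -0.34.

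ER translocation and folding genes were lower in 23 of 31 and higher in 4, with a median of -0.43 that turned to 0.19 with plain totals. HYOU1, an ER chaperone, had 171 to 196 normalised CPM in high-mitochondrial barcodes, against 103 to 120 in intact cells (0.70 ± 0.066), and STT3A, a catalytic subunit of the oligosaccharyltransferase, was at 0.49 ± 0.10. KDELR1 and SEC61G, a small subunit of the translocon (158 to 231 in high-mitochondrial barcodes, against 396 to 512 in intact cells; -1.26 ± 0.061), had the largest falls. Genes of secreted and surface proteins were higher in 21 and lower in 16 of 45 (median 0.02, and 0.63 with plain totals), near the 36.4% higher and 34.1% lower of all genes. LAMA1 had 57.4 to 150 in high-mitochondrial barcodes, against 21.8 to 36.5 in intact cells (1.70 ± 0.10), and LAMB1 rose by 1.28 ± 0.11; both encode laminin chains of the basement membrane. The growth factor MDK, with 252 to 347 in high-mitochondrial barcodes and 549 to 750 in intact cells (-1.12 ± 0.061), and the surface glycoprotein CD24 (-0.97 ± 0.066) fell.

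Genes that rose and genes that fell differed in transcript class and length. Of 1286 lncRNA genes tested, 977 were higher and 85 lower, with a median log2 change of 1.32. They were 42.8% of the genes more than 2-fold higher, 1.52% of those more than 2-fold lower and 9.93% of all tested, by the GENCODE class of the 12922 genes matched by Ensembl ID. Among 11619 protein-coding genes the log2 change had a Spearman rho of 0.57 with coding length, and of 0.46 to 0.54 within single arms. That value is a description across genes of the same libraries, which are not independent replicates. For transcript length rho was 0.56, for the number of exons 0.37, for the length of the 3′ UTR 0.32, for GC content -0.066 and for the mean level -0.31.

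The median coding length was 2194.5 bases in genes more than 2-fold higher, 639 bases in genes more than 2-fold lower and 1395 bases in all coding genes tested. From the shortest to the longest quintile of coding lengths the median log2 change was -0.79, -0.39, -0.02, 0.18 and 0.53. Against low-UMI barcodes the same quintiles had -0.42, -0.13, 0.06, 0.20 and 0.39 (rho 0.56 over 7272 genes), so the order held against barcodes of low depth as well. In each quintile, genes whose protein held a hydrophobic stretch, defined as a window of 19 residues with a mean Kyte-Doolittle hydropathy of at least 1.6, had the higher median. It was -0.67 for genes with such a stretch and -0.83 for those without in the shortest quintile, and 0.67 and 0.43 in the longest. Of the genes more than 2-fold higher, 45.8% had such a stretch, against 20.0% of those more than 2-fold lower and 31.4% of all.

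**Figure D4:**
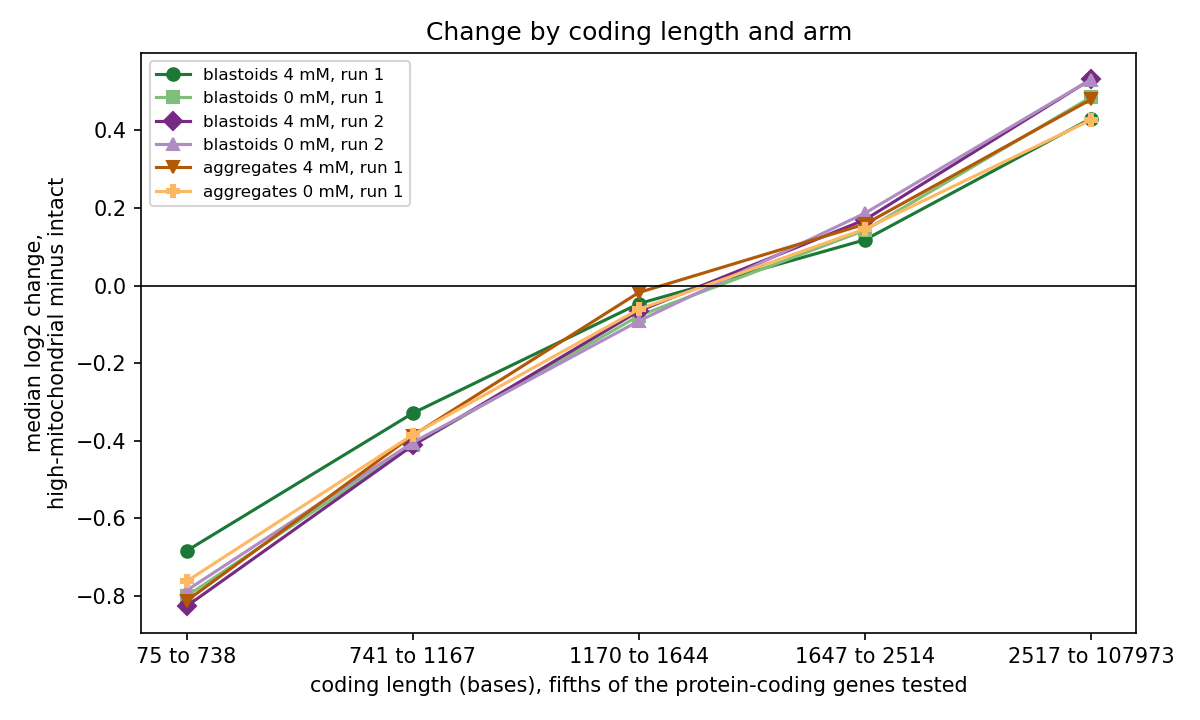
Median log2 change, high-mitochondrial minus intact, of protein-coding genes in quintiles of coding length (bases, short to long), with 1 line per arm. The arms ran from between -0.83 and -0.68 in the shortest quintile to between 0.43 and 0.53 in the longest.

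Most cell cycle genes were lower relative to other nuclear genes, and the direction depended on the scaling. Among all genes tested 34.1% were lower. S phase genes were lower in 14 of 22 and higher in 3 (median -0.55), and with plain totals 5 were lower and 9 higher (median 0.06). G2/M genes were lower in 15 of 25 and higher in 5 (median -0.48), and with plain totals 5 were lower and 11 higher (median 0.13). The summed share of nuclear UMIs, on plain totals, had a log2 ratio of 0.16 to 0.48 for S phase genes and 0.25 to 0.46 for G2/M genes. The median of all genes on that scale was 0.65, above both ranges. ASPM, a spindle pole protein with a coding length of 10431 bases, had 137 to 201 normalised CPM in high-mitochondrial barcodes, against 70.5 to 94.3 in intact cells (0.93 ± 0.072). CENPE, a kinetochore motor of 8103 coding bases, rose by 0.82 ± 0.083. UBE2C, the ubiquitin-conjugating enzyme of mitotic exit with 537 coding bases, had 118 to 178 in high-mitochondrial barcodes, against 238 to 399 in intact cells (-1.19 ± 0.066). CCNB2, a mitotic cyclin, fell by 1.04. Its 1194 coding bases place it in the middle quintile of coding lengths, where the median change was -0.02. The part of coding length in the changes of these genes was not tested. Among S phase genes HELLS (0.66 ± 0.059) and CLSPN (0.34 ± 0.071) rose, while DUT (-1.05 ± 0.071) and TYMS (-1.02 ± 0.079), enzymes of nucleotide synthesis, fell. Replication-dependent histones were lower in 12 of 19 and higher in 1 (median -0.80), and with plain totals 4 were lower and 4 higher. HIST1H1B fell by 1.18 ± 0.11, and HIST1H2BH was the member that rose (0.60 ± 0.12).

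Genes of the p53 and ATF4 stress lists were called in both directions. Over all genes 36.4% were higher and 34.1% lower. The ATF4 counts were near these shares and are no result about that list. Of 19 p53 targets and apoptosis genes, 5 were higher and 9 lower (median -0.14, and 0.48 with plain totals), with PLK3 (0.99 ± 0.13) and ZMAT3 (0.54 ± 0.088) higher, and BAX, the pore-forming effector of apoptosis, at 134 to 181 normalised CPM in high-mitochondrial barcodes, against 325 to 379 in intact cells (-1.21 ± 0.067). TRIAP1 fell by 1.16. Of 18 ATF4 targets, which respond to amino acid and ER stress, 5 were higher and 6 lower (median -0.03, and 0.59 with plain totals). Their summed share of nuclear UMIs, on plain totals, had a log2 ratio of 0.29 to 0.56 by arm. The median of all genes on that scale was 0.65, above this range. The cystine transporter SLC7A11 had 87.0 to 136 in high-mitochondrial barcodes, against 36.3 to 55.4 in intact cells (1.21 ± 0.078), and GPT2 rose by 0.50 ± 0.074, while PSAT1 (-0.92 ± 0.069) and TRIB3 (-0.88 ± 0.11) fell.

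Immediate early genes, which cells switch on within minutes of a stimulus, were higher in 3 and lower in 6 of 16 (median -0.24, and 0.38 with plain totals). Over all genes 36.4% were higher and 34.1% lower, so the count of lower members was near the general share. IER5 had 6.38 to 77.5 normalised CPM in high-mitochondrial barcodes, against 6.33 to 28.9 in intact cells (0.76 ± 0.13), whereas JUND (-0.80 ± 0.067) and ATF3 (-0.75 ± 0.13) fell. As a share of nuclear UMIs, the list had a log2 ratio of 0.42 and 0.35 in blastoids of run 2 at 4 mM and 0 mM, and of -0.03 and -0.02 in blastoids of run 1. Aggregates at 4 mM and 0 mM had -0.04 and 0.02. Against low-UMI barcodes 8 of the 9 members tested were lower in high-mitochondrial barcodes and 0 were higher (median -1.004).

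Of the epiblast (Epi) markers, all 24 were tested, 18 were lower, 3 were higher and 3 were not called (median -0.39, and 0.23 with plain totals). The general share of lower genes was 34.1%. Besides POU5F1, DPPA5, a marker of naive cells with 348 coding bases, had 921 to 1183 normalised CPM in high-mitochondrial barcodes, against 2173 to 3146 in intact cells (-1.32 ± 0.053). DPPA2 (-1.24 ± 0.091), DPPA3 (-0.92 ± 0.066), DNMT3L (-0.79 ± 0.075), UTF1 (-0.78 ± 0.064), TDGF1 (-0.72 ± 0.061), NODAL (-0.71 ± 0.089), ARGFX (-0.68 ± 0.19) and LIN28A (-0.68 ± 0.068) were lower as well. ZFP42, NANOG, KLF17, SALL4, SOX2, FGF4, KLF4 and GDF3 had log2 changes of -0.51 to -0.15, and the sign of these 8 turned with plain totals. The 3 that rose were the naive surface protein SUSD2, at 101 to 204 in high-mitochondrial barcodes and 58.3 to 102 in intact cells (0.84 ± 0.071), TFCP2L1 (0.36 ± 0.083) and DPPA4 (0.15 ± 0.059). Without 1 arm, calls were lost for DPPA4 (0.11 without aggregates at 0 mM, 0.12 without aggregates at 4 mM and 0.077 without blastoids at 0 mM of run 1) and for KLF17 (-0.23 without blastoids at 4 mM of run 1). They were lost for KLF4 without aggregates at 4 mM (-0.15) or blastoids at 4 mM of run 1 (-0.18) or run 2 (-0.199), and for GDF3 without aggregates at 4 mM (-0.12) or blastoids of run 2 at 4 mM (-0.11) or 0 mM (-0.15). On plain totals the summed share of Epi markers in nuclear UMIs stayed close, at 0.526% to 0.680% in high-mitochondrial barcodes and 0.550% to 0.719% in intact cells. The median log2 change of all genes was 0.65 on that scale.

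Trophectoderm (TE) markers were at low level in both states, and 18 of 23 reached the level needed for testing. Of these 6 were higher, 2 were lower and 10 were not called (median 0.35, and 0.96 with plain totals). The share that was higher was near the 36.4% of all genes, so the count is no result about TE markers, and the members called are given as single genes. NR2F2 (1.69 ± 0.19), CCKBR (1.35 ± 0.21), ENPEP (1.32 ± 0.29), GRHL1 (0.66 ± 0.18), ELF3 (0.55 ± 0.078) and GATA3 (0.51 ± 0.21) were higher. The short keratin gene KRT19, with 30.4 to 56.3 normalised CPM in high-mitochondrial barcodes and 54.9 to 117 in intact cells (-0.88 ± 0.097), and MSX2 (-0.60 ± 0.25) were lower. The call of GATA3 was lost without blastoids of run 2 at 4 mM (0.19) or 0 mM (0.48), and that of MSX2 without either aggregate arm or either blastoid arm at 4 mM (-0.60 to -0.502). NR2F2, a transcription factor of mature trophectoderm, had 0.797 to 61.8 in high-mitochondrial barcodes, against 0.288 to 24.2 in intact cells, and the states overlapped over the arms.

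Few barcodes of either state carried TE markers at equal depth. After thinning to 500 nuclear UMIs, at least 2 TE marker UMIs were found in 4.56% (exact 95% interval 2.30 to 8.02) of high-mitochondrial barcodes and 3.95% (2.86 to 5.31) of intact cells in blastoids at 4 mM of run 1, and in 1.67% (0.616 to 3.60) and 1.59% (0.585 to 3.42) at 0 mM. In run 2 the shares were 4.51% (2.88 to 6.69) of high-mitochondrial barcodes and 1.88% (1.53 to 2.28) of intact cells at 4 mM, and 3.54% (2.23 to 5.31) and 1.55% (1.20 to 1.97) at 0 mM. Aggregates, the earlier stage at 40 h, had 1.17% (0.534 to 2.201) of high-mitochondrial barcodes and 0.273% (0.0564 to 0.796) of intact cells at 4 mM, and 1.00% (0.207 to 2.90) and 0.492% (0.160 to 1.14) at 0 mM, which was taken as the background of this measure in run 1. The intervals of the states were apart in both arms of run 2 and overlapped in all 4 arms of run 1. They cover counting error only, since barcodes of 1 arm are not replicates, and they narrow with the number of barcodes. Run 2 held 5276 and 4186 intact cells at 4 mM and 0 mM, more than any arm of run 1. The intervals therefore do not tell in which arms the states differ. In blastoids at 0 mM of run 1 the share of high-mitochondrial barcodes lay within the intervals of the high-mitochondrial aggregates. The share of intact cells of that arm, 1.59%, lay above both intervals of the intact aggregates. With 6 of 359 high-mitochondrial barcodes, the measure does not tell whether TE cells are among them. Without thinning, TE markers summed to 0.0247% to 0.0578% of nuclear UMIs in high-mitochondrial barcodes, against 0.0181% to 0.0344% in intact cells. The log2 ratio of that share was 0.32 to 1.35 by arm. Thinned and summed values are both on plain totals, where the median log2 change of all genes was 0.65. The part of that general shift in the TE shares was not tested.

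Markers of mesoderm, fibroblasts and amnion were mostly too low to test. Of 9 mesoderm and fibroblast markers 3 were tested and 0 called, with a summed share of 0.000880% to 0.00212% of nuclear UMIs in high-mitochondrial barcodes and 0.000615% to 0.00112% in intact cells. Of 6 amnion markers 2 were tested and 1 was called lower. Primitive endoderm is the third lineage of the blastocyst. Of 12 primitive endoderm markers 5 were tested and 2 were higher, near the 36.4% of all genes, so the count is no result about these markers. Their summed share was 0.00662% to 0.00970% of nuclear UMIs in high-mitochondrial barcodes, against 0.00296% to 0.00367% in intact cells. The states did not overlap, and the log2 ratio was 0.85 to 1.64 by arm on plain totals, where the median of all genes was 0.65. These shares rest on few counts, at 0.14 to 0.21 UMIs per high-mitochondrial barcode in the blastoid arms. Among the members higher was COL4A1, a basement membrane collagen of 5007 coding bases, with 27.1 to 59.8 normalised CPM in high-mitochondrial barcodes and 17.4 to 24.4 in intact cells (0.93 ± 0.12). The part of these cell types in the contrast was not tested.

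The composition of nuclear RNA followed the mitochondrial share, and did not do so evenly. Over bands of up to 5%, 5 to 10%, 10 to 15%, 15 to 20%, 20 to 30%, 30 to 40% and over 40% mitochondrial UMIs, the median over arms of the ribosomal protein share was 36.1%, 35.2%, 30.6%, 27.0%, 22.1%, 21.1% and 26.4% of nuclear UMIs. MALAT1 had 0.537%, 0.615%, 1.24%, 2.65%, 3.26%, 3.61% and 1.78% in the same order. Both series turned in the last band, where MALAT1 was at 1.29% to 2.64% by arm, below the 2.70% to 4.05% of the 30 to 40% band, and ribosomal protein genes were at 24.2% to 28.9%. The 10 to 15% band had enough barcodes (20 or more) in 5 of 6 arms.

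Barcodes just inside and just outside the limit of 15% differed in depth as well, since high-mitochondrial barcodes needed 1000 UMIs while intact cells needed 7000 in run 1 and 5000 in run 2. The median UMIs per barcode were 8134 inside and 11341.5 outside in run 1, and 3517 inside and 7321 outside in run 2. The part of depth in the values on the sides of the limit was not tested. Just inside it, at 15 to 17%, 73 barcodes of run 1 had a ribosomal protein share of 27.2% and a MALAT1 share of 2.01%, against 28.0% and 1.38% in the 42 barcodes just outside, at 13 to 15%. In run 2 the 51 barcodes just inside had 27.1% and 2.95%, against 27.6% and 2.19% in the 39 barcodes just outside. When intact cells were limited to 10% and the other state began above 10%, 445 genes were more than 2-fold lower, against 1185 at the limit of 15%.

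**Figure D5:**
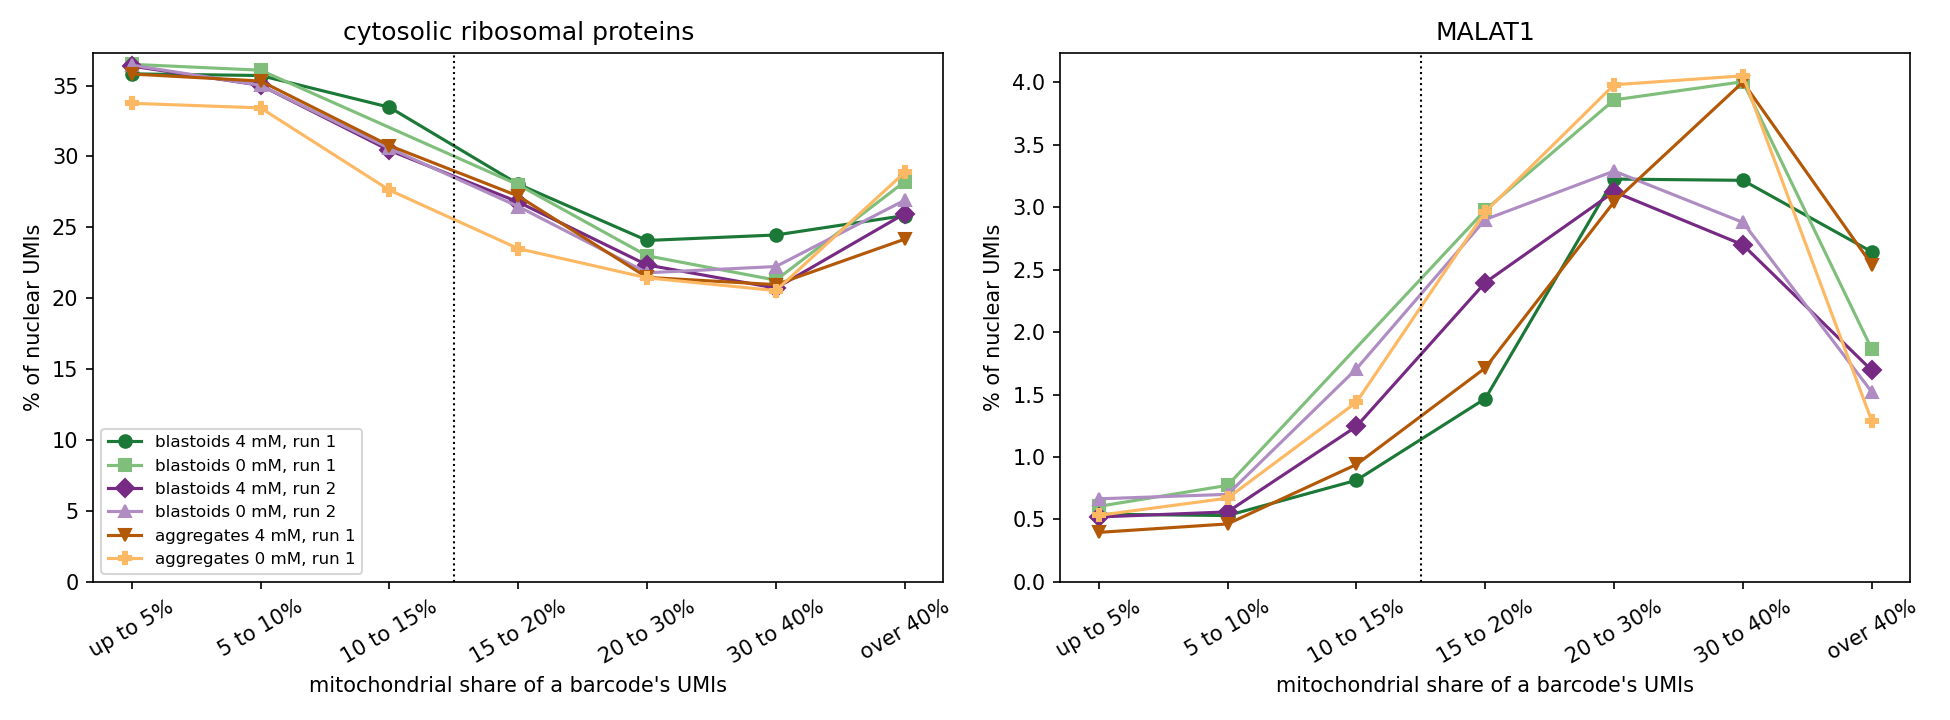
Share of nuclear UMIs (percent) held by cytosolic ribosomal protein genes and by MALAT1 in bands of the mitochondrial share (percent of UMIs, low to high), with 1 line per arm and a dotted line at the limit of 15%; a point is drawn where an arm had 20 barcodes or more. The median over arms of the ribosomal protein share was 36.1% in the lowest band, 21.1% at 30 to 40% and 26.4% above 40%, and that of MALAT1 was 0.537%, 3.61% and 1.78%.

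No nuclear gene was shown to change differently between the states with dm-αKG. In the test of the difference between doses (change in 4 mM arms minus change in 0 mM arms, edgeR's quasi-likelihood test with Benjamini-Hochberg adjustment), 0 of 12953 genes (0.0%) were called, the smallest adjusted p was 0.999 and 502 genes had an unadjusted p under 0.05. DESeq2 called 0 as well. On simulated counts for this comparison the test recovered 85% of genes with a log2 difference of 1 and 26% of those with 0.5, so small differences would mostly have been missed. These rates rest on 100 changed genes of each size and a common dispersion of 0.0034. All changed genes were at 20 CPM or more, so recovery below that level was not tested, and only 6218 genes reached it. The rates therefore do not tell how many differences in genes at lower level would have been found. The 6 genes followed in every arm changed in the same direction at both doses, as their values above show. In the test of the difference between the runs 0 genes were called and 874 had an unadjusted p under 0.05.

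Aggregates and blastoids of run 1 differed in the change of 7 genes (0.054% of 12953), 3 (0.0232%) with the higher change in aggregates and 4 (0.0309%) with the lower, and 1026 genes had an unadjusted p under 0.05. WSB1, a substrate receptor of a ubiquitin ligase, had 602 and 331 normalised CPM in high-mitochondrial barcodes of aggregates at 4 mM and 0 mM, against 187 and 150 in intact cells, and 137 and 209 in high-mitochondrial barcodes of blastoids of run 1, against 179 and 150. The rise in both aggregate arms was thus absent from the blastoid arm at 4 mM and smaller at 0 mM (difference of log2 changes 1.36 ± 0.19, SE, adjusted p = 2.70e-04). SAT1, which acetylates polyamines, had 119 and 83.7 in high-mitochondrial barcodes of aggregates, against 150 and 77.6 in intact cells, and 188 and 148 in blastoids, against 384 and 339 (0.96 ± 0.16, adjusted p = 0.00587). CIRBP, a cold-inducible RNA-binding protein, had 112 and 138 in high-mitochondrial barcodes of aggregates, against 136 and 186 in intact cells, and 75.0 and 95.2 in blastoids, against 200.4 and 197 (0.86 ± 0.17, adjusted p = 0.0265). For both genes the fall seen in blastoids was small or missing in aggregates.

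PLCG2, a phospholipase of immune signalling, rose in blastoids. It had 23.2 and 21.5 normalised CPM in high-mitochondrial barcodes of aggregates at 4 mM and 0 mM, against 27.5 and 24.1 in intact cells, and 67.3 and 58.2 in blastoids of run 1, against 27.4 and 26.5 (-1.39 ± 0.23, adjusted p = 0.00587). Blastoids of run 2 had 159 and 245 in high-mitochondrial barcodes, against 42.3 and 45.8 in intact cells, which is the same direction as in blastoids of run 1. The histone genes HIST1H1D (-1.40 ± 0.18, adjusted p = 9.94e-05) and HIST1H4C (-0.79 ± 0.15, adjusted p = 0.0299) fell further in aggregates than in blastoids. HIST1H1D, a linker histone, had 58.5 and 57.4 in high-mitochondrial barcodes of aggregates, against 182 and 225 in intact cells, and 91.6 and 64.8 in blastoids of run 1, against 109.5 and 93.9. Intact aggregates were thus the highest of all arms for this gene. The whole list of replication-dependent histones had log2 ratios of share of -1.18 and -1.40 in aggregates at 4 mM and 0 mM, and of -0.67 to -0.34 in the 4 blastoid arms. MT1H, of the metallothionein family with its near-identical members, had 309 and 268 in high-mitochondrial barcodes of aggregates, against 584 and 317 in intact cells, and 343 and 233 in blastoids of run 1, against 322 and 196 (-0.77 ± 0.14, adjusted p = 0.0194).

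These 7 calls rested on 2 arms per culture and depended on the settings. When high-mitochondrial barcodes had to reach the UMI minimum of intact cells, only WSB1 of the 7 was called, and DESeq2 called HIST1H1D, PLCG2 and SAT1 of the 7.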

How the data were processed

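The authors captured sorted single cells with 10x 3′ v3.1 chemistry, aligned reads to GRCh38 with Cell Ranger 6.1.2 after bcl2fastq 2.20.0.422 and deposited filtered matrices of UMI counts for genes and hashtags, with no normalization. The study then used Seurat 4.3.0 and its own limits on UMIs and mitochondrial share, which were not applied to the deposited counts. Group names came from the deposited hashtag tables, and 0 columns of other samples were met.

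Barcodes were assigned by a leading hashtag at 80% or more of hashtag UMIs, which also removed barcodes with mixed hashtags; doublets of 1 arm were not removed. MT- genes were taken out, UMI counts were summed by arm and state, and edgeR 4.0.16 (R 4.3.3, limma 3.58.1) was fitted with TMM factors, filterByExpr and the arm in the model, with Benjamini-Hochberg adjustment over 12953 genes and calls at 0.05. Interactions of state with dose, culture and run were fitted together. The spread of a gene was pooled with that of other genes. In the main fit 5 degrees of freedom were the gene's own and 42.0 (median) came from pooling, and 2 and 28.4 in the interaction fit. Small edgeR p-values rest in large part on that pooling. DESeq2 1.42.0 was an alternative. For single values an exact sign-flip permutation test over 6 arms was used. Depth was 755157 to 2509080 nuclear UMIs in sums of high-mitochondrial barcodes and 10480271 to 84598070 in sums of intact cells. Intervals are exact binomial, at 95%, and cover counting error only.

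The steps were tested on simulated data: in the comparison of states, on 13660 genes, 100% of changes of 1 on the log2 scale and 81% of 0.5 were recovered with 3 false calls, and in the comparison of doses, on 13691 genes, 85% and 26% with 4 false calls. Only genes at 20 CPM or more were changed in the simulations, and all genes shared a common dispersion. Gene positions, classes and lengths came from GENCODE (GRCh38), matched by Ensembl ID. UMIs per barcode, CPM with an offset of 0.5 for ratios, and percent of nuclear UMIs were computed from the counts.

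The members and the 24 gene lists were chosen with earlier results of these data known. Genes were named by a rule: among called genes at a mean of 20 CPM or more with 1 sign in every arm, the 15 largest rises and 15 largest falls, without sex-linked marker genes; from each list up to 2 called members per direction at 20 CPM; up to 5 interaction genes per direction; TE and Epi markers that were called; and MALAT1, GAPDH, ACTB, EEF1A1, POU5F1 and KRT18. The 13 mitochondrial genes were added to the names. 1 gene that the rule names is not reported here. Alternatives were plain totals, no filter, other limits on mitochondrial share, UMIs and hashtag purity, thinning, low-UMI barcodes in place of intact cells, no arm in the model, blastoids only and each arm left out.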

Additional observations from a re-analysis of the deposited data

Results flagged for a closer look

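In 2 of 40 groups of 6 arms looked at, 1 arm stood apart from the other 5 by Dixon's test at 95%, which is the rate of about 1 in 20 that chance gives. The log2 ratio of the share of cytoskeletal genes, high-mitochondrial over intact, was -0.35 in blastoids at 4 mM of run 1 and -0.54 to -0.48 in the other arms. The log2 ratio of the share of MT-ATP6 in mitochondrial UMIs was 0.26 in blastoids at 0 mM of run 1 and 0.17 to 0.19 in the other arms.

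The change between high-mitochondrial barcodes and intact cells differed between aggregates and blastoids of run 1 for 7 genes by a test of the difference itself (edgeR's quasi-likelihood interaction test, Benjamini-Hochberg adjusted p under 0.05). The difference of log2 changes, aggregates minus blastoids, was 1.36 for WSB1, 0.96 for SAT1 and 0.86 for CIRBP, and -1.40 for HIST1H1D, -1.39 for PLCG2, -0.79 for HIST1H4C and -0.77 for MT1H.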

How the results depend on the processing

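The split of calls depended most on scaling and depth. With plain totals 8162 genes were higher and 1634 lower (more than 2-fold 4514 and 20); barcodes thinned to 500 nuclear UMIs gave 1402 and 1347 (489 and 65) of 4653 genes tested; low-UMI barcodes in place of intact cells gave 1039 and 1110 (271 and 44). More than 2-fold lower were 2765 without a filter and 445 with the states split at 10%. Leaving out 1 arm gave 4323 to 5031 higher and 4073 to 4724 lower genes (more than 2-fold 1810 to 2535 and 1099 to 1596). DESeq2 gave 4389 and 4063. Hashtag UMIs turned to 0.36 with the same UMI minimum in both states and to 1.16 against low-UMI barcodes; without 1 arm they were -0.32 to -0.27 and the genes at equal depth 39.6 to 41.4, where 5 arms allow no exact p below 0.0625. In the comparison of doses, thinning gave 1 higher call. For aggregates against blastoids, 3 higher and 4 lower calls became 6 higher with plain totals, 9 lower without a filter, 18 and 12 above 25%, 1 and 0 with the same UMI minimum, 1 lower after thinning, and 1 and 2 by DESeq2. DESeq2 was added for these 2 comparisons after seeing the data, and leaving out an arm was not run for them.

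Some named genes turned. With plain totals KLF17 was at 0.26, SOX2 0.29, ZFP42 0.10, MSX2 0.0073, KLF4 0.40, FGF4 0.32, GDF3 0.46, NANOG 0.19 and SALL4 0.28. Without a filter NDUFS1 was at -0.10, DPPA4 -0.15 and CHORDC1 -0.078. Against low-UMI barcodes IER5 was at -0.51, ELF3 -0.053, HIST1H2BH -0.49, NODAL 0.12, FGF4 0.13 and GDF3 0.15, and after thinning KLF4 was at 0.65, FGF4 0.12, GDF3 0.18 and SALL4 0.13. The cause was not tested. Of 125 gene results named, 9 lost their call without at least 1 arm. The 125 include the 7 interaction results, for which leaving out an arm was not run. The arm is the block that pairs the states; without it no named gene changed direction.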
